A study of Mus musculus with 3 samples.

Results

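The genes Spi1, Cebpa, Cebpb, Cebpd, Cebpe, Gfi1, Klf2, Klf4, Klf6 and Myc encode transcription factors of the myeloid lineage, the blood branch that makes neutrophils and macrophages. They were chosen by gene symbol and are 10 of the 23234 genes listed for each library. Of these, 9 were found under their own symbol and Spi1 under its older symbol Sfpi1. The measurement was RNA sequencing of sorted cells from mice, and the values are FPKM, fragment counts scaled to transcript length and to library size.

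There were 3 libraries, each the only one of its group. DP cells, labelled double positive, were CD45+Ly6G+SiglecF+ cells of the nose taken 2 days after lipopolysaccharide. Nasal neutrophils were CD45+Ly6G+SiglecF- cells of the nose taken at 1 day. Blood neutrophils were CD45+Ly6G+SiglecF- cells of peripheral blood, also at 1 day. All mice were wild-type C57BL/6J of 6 to 15 weeks that received 10 µg of lipopolysaccharide, a bacterial cell wall product that activates innate immune cells, in 10 µL of PBS into both nostrils. Day, SiglecF gate and group changed together in DP cells, so these cannot be told apart, and untreated mice were not analysed here. How many mice went into a library is not given in the sources used here. With 1 library per group there is no replicate check, and no p-value or SD is given for any difference.

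PU.1, the product of Spi1, and the C/EBP factors act in succession during granulocyte formation. C/EBPα directs progenitors to the granulocyte branch, C/EBPε switches on the granule protein genes of late precursors, and C/EBPβ and C/EBPδ serve stress granulopoiesis and inflammatory gene expression in mature cells. GFI1 is a repressor that keeps granulocyte precursors from the monocyte fate, KLF2, KLF4 and KLF6 are zinc finger factors that set the activation state of myeloid cells, and MYC drives ribosome production and growth and is shut down as granulocytes mature.

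Neutrophil marker transcripts were detected in every library. All 8 neutrophil markers, among them S100a9, Csf3r and Cxcr2, reached 1 FPKM in all 3 libraries, with summed levels of 7691 FPKM in DP cells, 25480 FPKM in nasal neutrophils and 78170 FPKM in blood neutrophils. Eosinophil markers summed to 2.79, 2.64 and 5.53 FPKM in the same order of libraries, and the eosinophil peroxidase gene Epx was listed at 0 in all 3. At least 1 FPKM was reached by 11294 genes in DP cells, by 10460 in nasal neutrophils and by 7706 in blood neutrophils. From the smallest steps in the low values, depth was roughly 54600000, 12800000 and 53700000 fragments in those libraries, so the nasal neutrophil library was the shallowest.

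PU.1, C/EBPδ and KLF6 transcripts were abundant in all 3 cell groups and nearly level between them, whereas C/EBPβ and KLF2 transcripts were higher in both nasal groups than in blood and KLF4 transcripts in nasal neutrophils. Ratios below are log2 of (FPKM + 1) over (FPKM + 1), and a gene is called higher or lower past 4-fold, a log2 ratio of 2. The filter of a mean of 1 FPKM kept 10719 genes and 8 of the 10 members; Cebpa and Gfi1 did not pass. In nasal against blood neutrophils, 3 of the 8 (Cebpb, Klf2 and Klf4) were 4-fold higher, where 13.1% of all genes tested were. Of the 8, 0 were 4-fold lower, where 3.23% of all genes were. Klf4 and Myc passed the filter only through nasal neutrophils, so their higher ratios there are partly set by the filter. Against blood neutrophils, 3 of the 8 in DP cells (Cebpb, Cebpe and Klf2) were 4-fold higher beside 24.0% of all genes, and 0 were lower beside 3.57%. Between DP cells and nasal neutrophils, 0 of the 8 were 4-fold higher and 0 lower in DP cells, beside 8.42% and 3.62% of all genes. With a 2-fold mark, the members higher were 1 (Cebpe) in DP cells over nasal neutrophils, 5 in nasal over blood neutrophils (Cebpe and Myc in addition) and 4 in DP cells over blood neutrophils (Klf4 in addition), beside 33.6%, 33.5% and 48.6% of all genes. By this ratio none of the 8 was 2-fold lower in any of the 3, beside 11.3%, 12.8% and 9.49% of all genes. Without the pseudocount, Myc and Klf4 were past 2-fold lower in DP cells than in nasal neutrophils, with FPKM ratios of 0.371 and 0.437. The 3 comparisons share libraries pairwise and are not independent of each other.

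The shift of all genes has to be set beside these counts. The median log2 ratio of all genes tested was 0.57 for DP cells over nasal neutrophils, 0.41 for nasal over blood neutrophils and 0.95 for DP cells over blood neutrophils. The members' medians were -0.37, 1.44 and 1.08 in the same comparisons. Of the 8 members, 1 (Cebpe) lay above the all-gene median in DP cells over nasal neutrophils, 5 in nasal over blood neutrophils and 4 in DP cells over blood neutrophils. Less that median, the log2 ratios of Klf2, Klf4 and Myc in DP cells over nasal neutrophils were -1.37, -1.43 and -1.5, each past 2-fold lower. Centring on that median moved the split of all genes past 4-fold from 903 higher and 388 lower to 360 and 773 in DP cells over nasal neutrophils, from 1408 and 346 to 968 and 609 in nasal over blood neutrophils, and from 2577 and 383 to 1116 and 971 in DP cells over blood neutrophils.

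**Figure D1:**
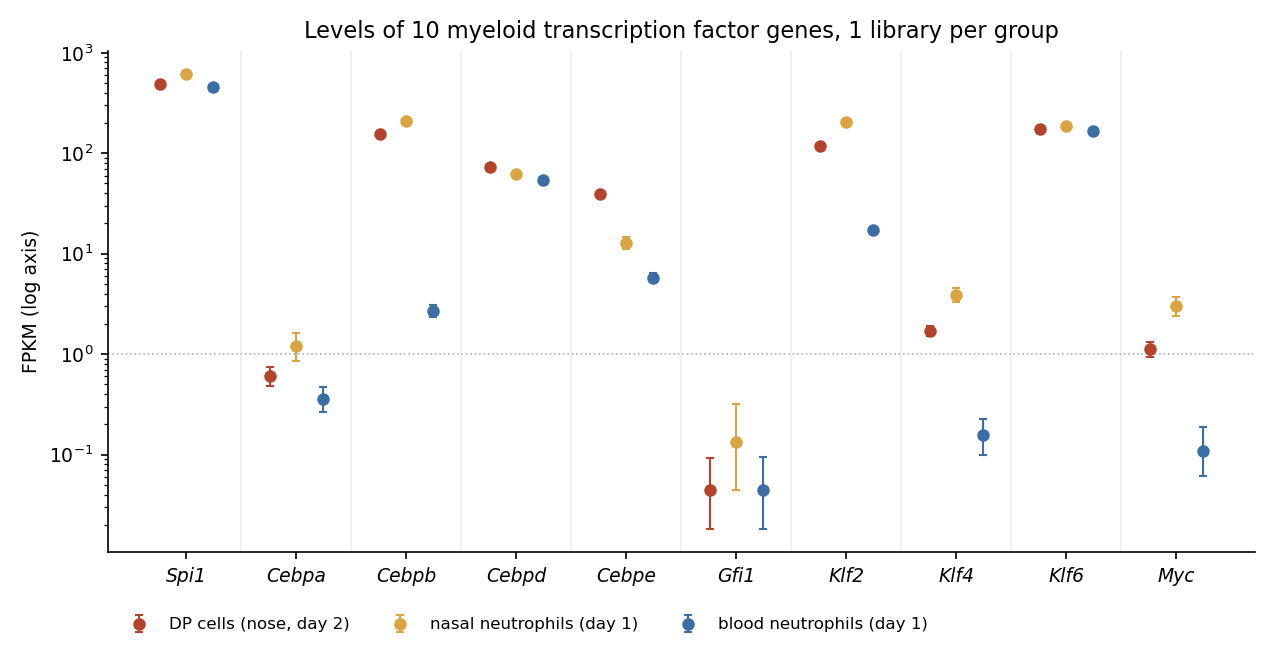
FPKM on a log axis of the 10 genes in DP cells, nasal neutrophils and blood neutrophils, 1 library each; bars are 95% exact Poisson intervals from the estimated fragments and cover counting error only. Spi1, Cebpd and Klf6 sit close together in all 3 libraries, and Cebpb in blood neutrophils sits at 2.71 FPKM, far under the nasal libraries at 156 and 208 FPKM.

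**Figure D2:**
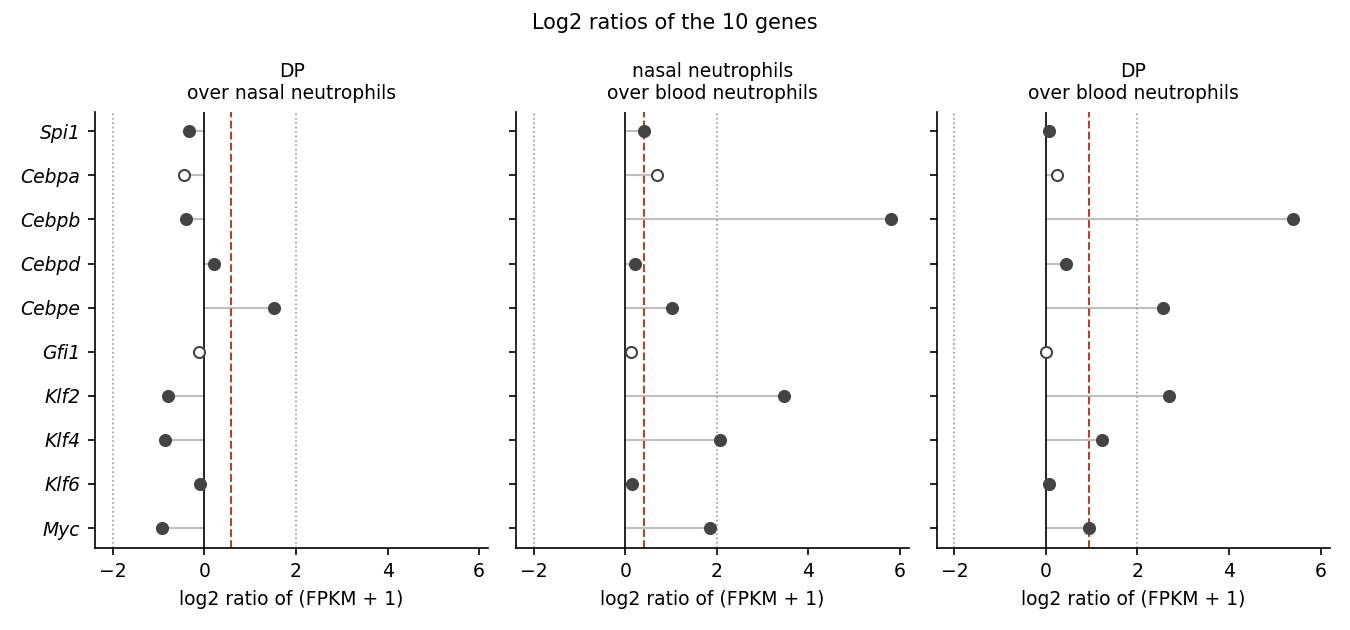
Log2 ratios of (FPKM + 1) for the 10 genes in the 3 comparisons; dotted lines mark 4-fold, dashed lines the median of all genes tested, and open circles the genes that did not pass the filter. Cebpb has the longest bars of the 10 in both comparisons with blood, at 5.81 and 5.40.

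The plot of levels shows where each gene stands in each library, and the plot of ratios shows that most of the 10 lie left of the all-gene median in DP cells over nasal neutrophils.

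The promoters of Cebpb and of the KLF genes are shown because Cebpb, Klf2 and Klf4 were higher together in the nasal neutrophils, while Klf6, a relative of Klf2 and Klf4, did not differ past 4-fold. Each line gives the 250 bases before the start of the gene, 5′ to 3′ on the gene's strand, from RefSeq GRCm38.p6. Capitals mark TGACG or its complement CGTCA, the cAMP response element half-site that CREB and ATF factors bind, chosen for display after the matches were seen.
Cebpb: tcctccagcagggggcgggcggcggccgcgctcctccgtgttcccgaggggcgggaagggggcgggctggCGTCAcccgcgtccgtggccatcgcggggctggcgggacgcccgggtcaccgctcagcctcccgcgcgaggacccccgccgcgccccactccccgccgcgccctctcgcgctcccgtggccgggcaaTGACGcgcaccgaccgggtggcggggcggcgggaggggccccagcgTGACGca
Klf2: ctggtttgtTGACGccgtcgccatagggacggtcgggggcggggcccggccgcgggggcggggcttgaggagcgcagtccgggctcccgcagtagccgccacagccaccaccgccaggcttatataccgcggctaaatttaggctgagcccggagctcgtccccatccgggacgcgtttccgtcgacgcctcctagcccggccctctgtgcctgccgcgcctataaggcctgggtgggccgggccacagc
Klf4: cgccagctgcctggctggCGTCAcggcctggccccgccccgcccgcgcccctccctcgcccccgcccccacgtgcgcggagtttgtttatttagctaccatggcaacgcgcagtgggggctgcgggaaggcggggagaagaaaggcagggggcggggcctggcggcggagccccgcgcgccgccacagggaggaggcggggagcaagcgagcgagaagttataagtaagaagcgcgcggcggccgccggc
Klf6: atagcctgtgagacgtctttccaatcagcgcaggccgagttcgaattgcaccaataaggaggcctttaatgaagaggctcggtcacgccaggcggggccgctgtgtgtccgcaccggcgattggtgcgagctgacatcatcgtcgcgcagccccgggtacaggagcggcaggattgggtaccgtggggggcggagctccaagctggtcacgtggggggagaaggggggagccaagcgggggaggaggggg
The Cebpb window is chr2:167688665-167688914 on the plus strand, Klf2 chr8:72318812-72319061 plus, Klf4 chr4:55532476-55532725 minus and Klf6 chr13:5861239-5861488 plus.

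The Cebpb window held 3 half-sites, at 180, 53 and 7 bases before the start, Klf2 held 1 at 241 bases, Klf4 held 1 at 232 bases and Klf6 held 0. Only exact matches were counted, and as the motif was chosen with these matches known, the split between the genes is no test. TGACG stood on either strand in 17.8% of the 32851 windows of the same length, which were not matched for G and C content. Klf6 held 4 matches to the CCAAT box, a sequence found in 33.8% of windows. Klf2 held a match to the MEF2 motif, present in 3.2% of windows, and Klf4 and Klf6 each held the MYC E-box CACGTG, present in 6.02%. The KLF and SP letters CCNCCC matched 8 times in Cebpb, 3 times in Klf2, 6 times in Klf4 and 5 times in Klf6, and stood in 64.5% of all windows. These windows were rich in G and C, at 81.6% for Cebpb, 71.2% for Klf2, 74.0% for Klf4 and 64.8% for Klf6, against a median of 52.4% over all windows. A match describes the letters and is no evidence of binding. In all, 9 motifs were searched on both strands. The PU.1, NF-kappaB and AP-1 motifs had 0 matches in all 7 windows of the members. The C/EBP motif had 1 match, in a Gfi1 window. A promoter entry was present for 6 of the 10 members. Those not shown are Cebpa, with 0 half-sites and 1 CCNCCC match, and Gfi1, with 0 half-sites in either of its 2 windows.

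Spi1, which encodes PU.1, the factor that opens the myeloid programme, was among the most abundant transcripts of every library. It had 483 FPKM in DP cells, 612 FPKM in nasal neutrophils and 461 FPKM in blood neutrophils, above 98.1%, 98.6% and 98.1% of the genes tested in those libraries. The log2 ratio was -0.34 for DP cells over nasal neutrophils and 0.41 for nasal over blood neutrophils. For DP cells over blood neutrophils it was 0.07, which became -0.88 after centring on all genes, so no direction is given for it. The value for nasal over blood neutrophils fell to -0.10 in its lowest alternative, so it carries no direction either.

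Most known PU.1 target genes were lower in DP cells than in nasal neutrophils, the majority of them by less than 4-fold. Of 13 tested, 12 had a log2 ratio below 0, with a list median of -1.56 against 0.57 for all genes. In that comparison 0 were 4-fold higher and 2 (Itgam and Fcgr1) were 4-fold lower, beside 8.42% and 3.62% of all genes. Itgam, the αM integrin chain CD11b, had 26.9 FPKM in DP cells, 137 FPKM in nasal neutrophils and 136 FPKM in blood neutrophils, which leaves the DP library as the low one. Cd14, the lipopolysaccharide co-receptor, had 4118 FPKM in DP cells, 12200 FPKM in nasal neutrophils and 204 FPKM in blood neutrophils. Fcgr1, the high-affinity IgG receptor, had 3.51, 18.3 and 0.335 FPKM in the same libraries. Cd14 and Fcgr1 were the 2 of 13 that were 4-fold higher in nasal than in blood neutrophils, beside 13.1% of all genes. The list median there was 0.01. Csf3r, the receptor of the granulocyte growth factor G-CSF and a gene outside the naming rule, had 581 FPKM in DP cells, 607 FPKM in nasal neutrophils and 1180 FPKM in blood neutrophils. Against blood neutrophils, DP cells had 1 target higher (Cd14) and 1 lower (Itgam), beside 24.0% and 3.57% of all genes. The list median there was -0.83.

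Cebpb, the inflammatory C/EBP factor, showed the widest difference of the 10. It had 156 FPKM in DP cells, 208 FPKM in nasal neutrophils and 2.71 FPKM in blood neutrophils. Both nasal libraries were high and blood was low. On the linear scale the FPKM ratio was 76.7 for nasal over blood neutrophils and 57.6 for DP cells over blood neutrophils, but 0.752 for DP cells over nasal neutrophils. The blood value rests on about 219 fragments, with a 95% exact Poisson interval of 2.36 to 3.09 FPKM that covers counting error only. The log2 ratios were 5.81 and 5.40 in the comparisons with blood and stayed past 4-fold in all 9 alternatives of processing, between 4.79 and 6.21 and between 4.09 and 5.80. The gene has a single exon and overlaps Tmem189 on the opposite strand in GENCODE M21. Tmem189 had 5.4, 11.3 and 2.09 FPKM in DP cells, nasal neutrophils and blood neutrophils, and as the strandedness of counting is not given in the sources used here, the blood value of Cebpb is uncertain in part.

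Cebpd, which C/EBPβ often accompanies in inflammatory responses, did not share that difference. It had 72.9 FPKM in DP cells, 62.8 FPKM in nasal neutrophils and 53.7 FPKM in blood neutrophils. The 3 log2 ratios were 0.21, 0.22 and 0.44 for DP cells over nasal neutrophils, nasal over blood neutrophils and DP cells over blood neutrophils, and each turned negative after centring on all genes (-0.36, -0.19 and -0.52). Cebpd overlaps Spidr, at 14.9, 16.2 and 44.3 FPKM, with the same uncertainty.

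The make-up of the C/EBP family differed between the nasal and the blood libraries. The 6 family genes Cebpa, Cebpb, Cebpd, Cebpe, Cebpg and Ddit3, which encodes the stress-response member CHOP, summed to 355.4 FPKM in DP cells, 369 FPKM in nasal neutrophils and 221.8 FPKM in blood neutrophils. Cebpb made up 43.9% of that sum in DP cells, 56.3% in nasal neutrophils and 1.22% in blood neutrophils, and Cebpd 20.5%, 17.0% and 24.2%. Ddit3 had 75 FPKM in DP cells, 79.5 FPKM in nasal neutrophils and 149 FPKM in blood neutrophils, 21.1%, 21.5% and 67.1% of the sum. Cebpb thus led the family in both nasal libraries and Ddit3 in blood. Within a library, the FPKM ratio of Cebpb to Cebpd was 2.14 in DP cells, 3.31 in nasal neutrophils and 0.0505 in blood neutrophils. This ratio does not depend on the scaling between libraries.

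**Figure D3:**
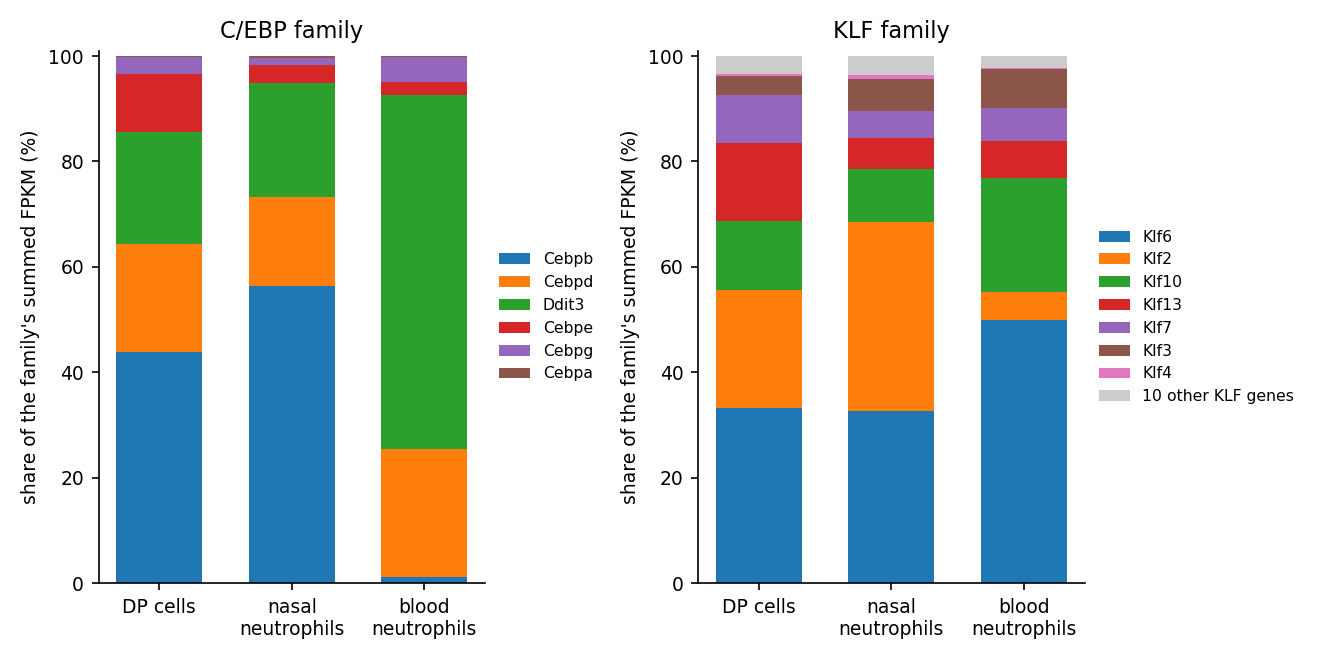
Share of the summed FPKM of the C/EBP family (left, 6 genes) and of the KLF family (right, 17 genes) taken by each gene in DP cells, nasal neutrophils and blood neutrophils, in percent. Cebpb holds 43.9% and 56.3% of its family in the nasal libraries and 1.22% in blood, where Ddit3 holds 67.1%.

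The plot of family shares sets these proportions side by side, with the KLF genes described further on.

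Among 8 tested genes that C/EBPβ and C/EBPδ are known to drive, 6 were 4-fold higher and 0 lower in nasal than in blood neutrophils, beside 13.1% and 3.23% of all genes. Their median was 4.64 against 0.41 for all genes. Il6, Arg1, Nos2, Csf3 and Saa3 were at or near 0 in blood and passed the filter only through the nasal libraries. The counts therefore describe the list and are no test of C/EBP activity. Saa3, an acute-phase apolipoprotein, had 207 FPKM in DP cells, 658 FPKM in nasal neutrophils and 0.104 FPKM in blood neutrophils. Ptgs2, the inducible cyclooxygenase, had 264, 738 and 2.01 FPKM in those libraries. Csf3, which encodes G-CSF, had 26.9 FPKM in DP cells and 188 FPKM in nasal neutrophils while its blood value was listed at 0, as were those of Il6, Arg1 and Ptx3. Il6, the cytokine interleukin-6, had 1.14 FPKM in DP cells and 20.1 FPKM in nasal neutrophils. Saa3, Ptgs2 and Csf3 were thus high in both nasal libraries. In blood, Saa3 and Csf3 were at or near 0 and Ptgs2 was low. Hp, haptoglobin, was chosen for mention after its values were seen. Its highest level was in blood at 3153 FPKM, against 338 FPKM in DP cells and 1347 FPKM in nasal neutrophils. Relative to nasal neutrophils, 0 of the 8 were 4-fold higher in DP cells and 4 (Il6, Csf3, Arg1 and Nos2) were 4-fold lower, beside 8.42% and 3.62% of all genes. The median was -2.35 against 0.57. Il6, Arg1 and Nos2 passed the filter only through nasal neutrophils, so this count of lower genes is no test either. Nos2, the inducible nitric oxide synthase, had 0.555 FPKM in DP cells, 30.3 FPKM in nasal neutrophils and 0.175 FPKM in blood neutrophils. In DP cells against blood neutrophils, 3 (Saa3, Ptgs2 and Csf3) were higher and 1 (Hp) lower, beside 24.0% and 3.57% of all genes, with a median of 1.47.

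Other partners of the C/EBP factors included Trib1, the pseudokinase that marks C/EBP proteins for degradation. Trib1 had 43.3 FPKM in DP cells, 257 FPKM in nasal neutrophils and 7.03 FPKM in blood neutrophils. It was 4-fold lower in DP cells than in nasal neutrophils (log2 ratio -2.54) and 4-fold higher in both nasal groups than in blood (2.46 for DP cells and 5.01 for nasal neutrophils). Nfil3, a bZIP factor of the same class as the C/EBPs, had 57.6, 155 and 23.3 FPKM and was 4-fold higher in nasal than in blood neutrophils. Atf4, the stress-response bZIP factor, had 27.3, 47.8 and 16.8 FPKM, and Cebpz, a CCAAT-binding factor outside the bZIP class, had 9.37, 3.19 and 3.11 FPKM, both within 4-fold throughout. Trib1 and Nfil3 were the 2 of 9 tested partners 4-fold higher in nasal over blood neutrophils, beside 13.1% of all genes. The list medians were 0.01, 1.1 and 1.27 for DP cells over nasal neutrophils, nasal over blood neutrophils and DP cells over blood neutrophils.

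Cebpe, the late-granulocyte C/EBP factor, had its highest level in DP cells. It had 39.1 FPKM in DP cells, 12.9 FPKM in nasal neutrophils and 5.79 FPKM in blood neutrophils, about 2649, 205 and 386 fragments. Blood neutrophils were lowest, the order that Cebpd also had with smaller gaps, and the counting intervals of 37.7 to 40.6, 11.2 to 14.8 and 5.22 to 6.4 FPKM were apart. The log2 ratio of 2.56 for DP cells over blood neutrophils passed 4-fold, but was 1.61 after centring on all genes and passed in 6 of 9 alternatives. For DP cells over nasal neutrophils it was 1.53, which stayed above 0 in all 9 alternatives (0.47 to 1.59). This ratio was 0.95 after centring on all genes and lowest, at 0.47, when corrected for transcript length. The length correction also lowered the ratio for DP cells over blood neutrophils, to 1.14. Cebpe has the shortest transcript of the members, at 1241 nt. The direction thus held, but the size of the ratios depended on the processing. Cebpe was the 1 of 8 members past 2-fold in DP cells over nasal neutrophils, but not after centring or the length correction.

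The granule genes that C/EBPε is known to switch on stood the other way. Of 6 tested, 0 were 4-fold higher and 5 were 4-fold lower in DP cells than in nasal neutrophils, beside 8.42% and 3.62% of all genes, with a median of -3.54. Lcn2, the iron-siderophore binding lipocalin, had 70.2 FPKM in DP cells, 3577 FPKM in nasal neutrophils and 937 FPKM in blood neutrophils. Ngp, neutrophilic granule protein, had 267, 3993 and 562 FPKM. Camp, the cathelicidin gene, had 116, 1055 and 398 FPKM. All 3 were lowest in the DP library, which had the highest Cebpe. Ltf, lactoferrin, had 186 FPKM in DP cells, 1324 FPKM in nasal neutrophils and 56.6 FPKM in blood neutrophils, so blood was the lowest library for this gene. Mmp8, neutrophil collagenase, had 17.8, 508 and 1369 FPKM in the same libraries, with blood highest. In nasal against blood neutrophils 2 of the 6 (Ltf and Ngp) were 4-fold higher and 0 lower, beside 13.1% and 3.23% of all genes. In DP cells against blood neutrophils 0 were higher and 2 (Lcn2 and Mmp8) lower, beside 24.0% and 3.57%, with a median of -1.42.

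**Figure D4:**
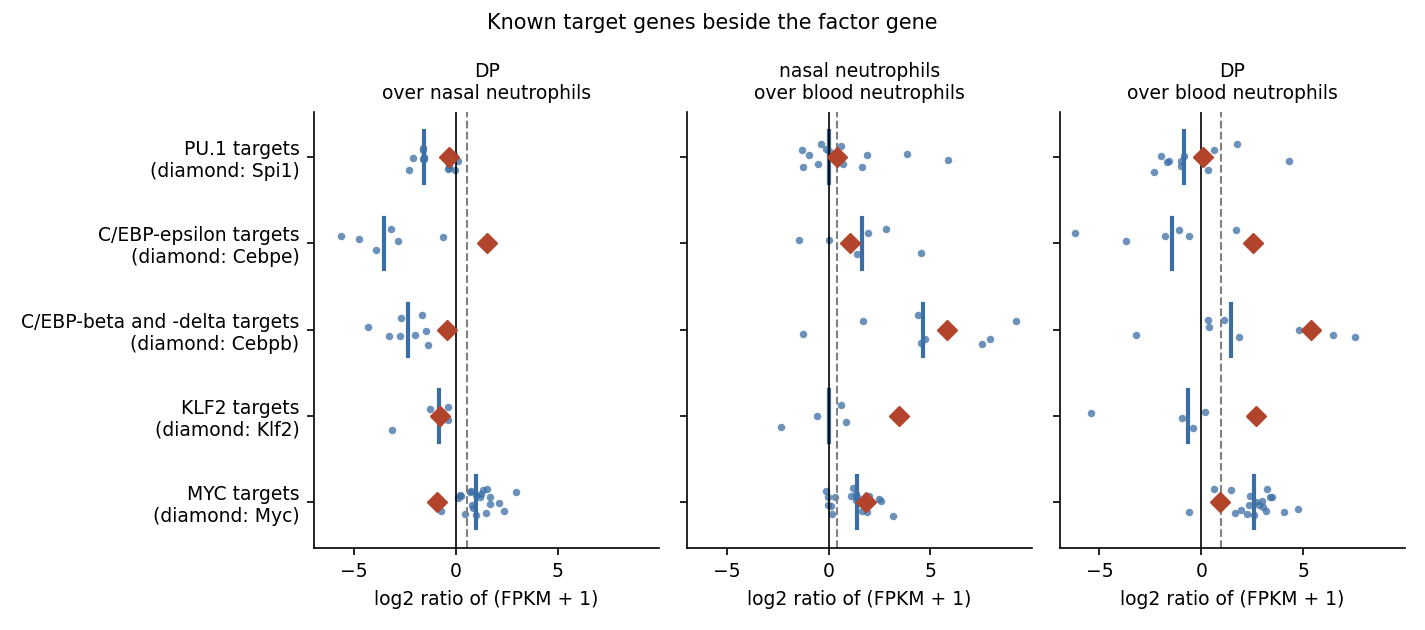
Log2 ratios of (FPKM + 1) of known target genes (dots, with a bar at the list median) and of the factor gene itself (diamond) in the 3 comparisons; the dashed line is the median of all genes tested. In DP cells over nasal neutrophils the 6 C/EBPε targets lie below 0 with a median of -3.54 while Cebpe lies at 1.53, and the MYC targets have a median of 1.01 while Myc lies at -0.92.

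The plot of target genes shows for each factor where its own transcript lies relative to its targets. Cebpb lay on the same side as most of its targets in nasal over blood neutrophils, and Cebpe and Myc lay on the other side from their lists' medians in DP cells over nasal neutrophils.

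Cebpa, the factor of early granulocyte commitment, was low in every library. It had 0.607 FPKM in DP cells, 1.2 FPKM in nasal neutrophils and 0.356 FPKM in blood neutrophils, about 87, 40 and 50 fragments, and made up 0.171%, 0.324% and 0.161% of the family sum. The counting intervals of 0.486 to 0.749, 0.85 to 1.62 and 0.263 to 0.467 FPKM were apart, with nasal neutrophils highest. Markers of granulocyte precursors and of dividing cells were also low, with summed levels of 29.2 FPKM in DP cells, 34.7 FPKM in nasal neutrophils and 3.06 FPKM in blood neutrophils, and Mpo, Elane and Ctsg were listed at 0 in blood.

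Gfi1, the repressor of the granulocyte branch, was lower still, and no difference was detectable at this depth. It had 0.0442 FPKM in DP cells, 0.134 FPKM in nasal neutrophils and 0.0448 FPKM in blood neutrophils, about 7, 5 and 7 fragments. The counting intervals of 0.018 to 0.0924, 0.0444 to 0.319 and 0.0183 to 0.0938 FPKM overlapped. Its relative Gfi1b, known for red cell and platelet formation, had 45.4 FPKM in DP cells and 2.34 FPKM in nasal neutrophils. In blood neutrophils it was also near the floor, at 0.146 FPKM. Gfi1b was 4-fold higher in DP cells than in nasal neutrophils (log2 ratio 3.8) and than in blood neutrophils (5.34). It made up 99.9%, 94.6% and 76.5% of the Gfi1 and Gfi1b sum in the 3 libraries. The share in blood rests on a sum of only 0.1905 FPKM. Marker lists differed in whether they shared the order of Gfi1b levels. Red cell markers summed to 14.0 FPKM in DP cells, 12.0 FPKM in nasal neutrophils and 3448 FPKM in blood neutrophils, and platelet markers, a list added after the data were seen, to 8.23, 5.1 and 28.2 FPKM. These 2 lists were highest in blood, where Gfi1b was lowest. Epithelial markers, at 663, 283 and 1.17 FPKM, and olfactory neuron markers, at 1728, 840 and 0.103 FPKM, had the order of Gfi1b. Stromal and endothelial markers, at 24.0, 13.9 and 0.0429 FPKM, and macrophage markers, at 416, 408 and 314 FPKM, had it too. The remaining cell type marker lists did not. Which cells carried the Gfi1b transcripts was not tested. Mast cell and basophil markers were all 4 listed at 0 in DP cells, and summed to 0.453 FPKM in nasal neutrophils and 0.125 FPKM in blood neutrophils. Of the 7 tested GFI1 partners, 1 (Gfi1b) was 4-fold higher in DP cells than in nasal neutrophils, 1 (Hdac2) in nasal than in blood neutrophils and 3 (Gfi1b, Hdac2 and the histone demethylase gene Kdm1a) in DP cells than in blood neutrophils, and 0 were lower in any comparison. The shares of all genes 4-fold higher in these comparisons were 8.42%, 13.1% and 24.0%. Hdac1 and Hdac3, histone deacetylases of the repressor complex, stayed within 4-fold, with 37.5 and 29.4 FPKM in DP cells, 26.9 and 15.8 FPKM in nasal neutrophils and 37.3 and 13.6 FPKM in blood neutrophils.

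Klf2, a factor that restrains inflammatory activation in myeloid cells, was high in both nasal libraries. It had 117 FPKM in DP cells, 204 FPKM in nasal neutrophils and 17.4 FPKM in blood neutrophils. The log2 ratio was 3.48 for nasal over blood neutrophils, past 4-fold in all 9 alternatives (2.82 to 3.60). For DP cells over blood neutrophils it was 2.68, past 4-fold in 6 of 9 alternatives and 1.73 after centring. For DP cells over nasal neutrophils it was -0.79, within 4-fold. Klf2 thus shared with Cebpb a low blood level, with a smaller gap.

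Klf4, which promotes the monocyte fate, was low everywhere and lowest in blood. It had 1.7 FPKM in DP cells, 3.9 FPKM in nasal neutrophils and 0.156 FPKM in blood neutrophils, about 282, 151 and 25 fragments, and the counting intervals of 1.51 to 1.92, 3.3 to 4.57 and 0.0994 to 0.227 FPKM were apart. The log2 ratio of 2.08 for nasal over blood neutrophils was just past 4-fold and depended on the pseudocount and scaling: it passed in 5 of 8 alternatives, with values of 0.79 to 3.97. Without a pseudocount the FPKM ratio was 25. The log2 ratio of DP cells over blood neutrophils was 1.23, within 4-fold, and past it in 1 of 8 alternatives. For DP cells over nasal neutrophils the log2 ratio was -0.86 and the FPKM ratio 0.437.

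Klf6, an early-response factor of the same family, did not differ past 4-fold. It had 174 FPKM in DP cells, 185 FPKM in nasal neutrophils and 167 FPKM in blood neutrophils, above 94.3%, 96.1% and 95.5% of the genes tested. Its log2 ratios of -0.09, 0.14 and 0.06 were all below 0 after centring (-0.66, -0.27 and -0.9), so the small positive values carry no direction. The 17 KLF genes summed to 523.2 FPKM in DP cells, 566.7 FPKM in nasal neutrophils and 334.3 FPKM in blood neutrophils. Klf6 made up 33.2%, 32.6% and 50.0% of that sum and Klf2 22.4%, 35.9% and 5.19%. The FPKM ratio of Klf6 to Klf2 was 1.48 in DP cells, 0.907 in nasal neutrophils and 9.63 in blood neutrophils, so that Klf6 was the leading KLF transcript in blood and in DP cells while Klf2 slightly exceeded it in nasal neutrophils.

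Most of the other KLF and SP genes stayed within 4-fold, as did most genes tested. Of 12 tested, 0 were past 4-fold in DP cells over nasal neutrophils, beside 8.42% of all genes higher and 3.62% lower. In nasal over blood neutrophils 1 (Klf5) was higher, beside 13.1%, and in DP cells over blood neutrophils 1 (Klf15) was higher, beside 24.0%. The list medians were 0.36, 0.44 and 0.43. Klf5, known for the growth of epithelial cells, had 4.13 FPKM in DP cells, 10.6 FPKM in nasal neutrophils and 1.01 FPKM in blood neutrophils. Klf13, a regulator of chemokine expression in lymphocytes, had 77.4, 32.8 and 23.9 FPKM and Klf7 had 48.1, 29.3 and 20.7 FPKM. Both had their highest level in DP cells without passing 4-fold. Klf3 had 18.6, 34.4 and 25.1 FPKM, Sp2 had 16.5, 18.1 and 9.64 FPKM and Sp3 had 14.2, 9.47 and 16.4 FPKM. Klf15 was listed at 0 in blood.

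Of 4 tested genes that KLF2 is known to control in lymphocytes and endothelium, 0 were 4-fold higher and 1 was 4-fold lower in each comparison. That gene is not reported here. All genes lower made up 3.62%, 3.23% and 3.57% in DP cells over nasal neutrophils, nasal over blood neutrophils and DP cells over blood neutrophils. The list medians were -0.83, 0.02 and -0.66 in that order. The other tested genes stayed within 4-fold throughout. S1pr1, a receptor for leaving tissue, had 2.43, 3.52 and 1.98 FPKM in DP cells, nasal neutrophils and blood neutrophils. Itgb7, an integrin chain of lymphocyte homing to the gut, had 4.99, 13.4 and 6.88 FPKM, and Thbd, thrombomodulin, had 2.76, 3.82 and 6.14 FPKM. Nos3, endothelial nitric oxide synthase, had 0.197, 0.344 and 0.013 FPKM and did not pass the filter.

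Myc was low in every library and lowest in blood. It had 1.12 FPKM in DP cells, 3.01 FPKM in nasal neutrophils and 0.109 FPKM in blood neutrophils, about 143, 90 and 14 fragments. The counting intervals of 0.945 to 1.32, 2.42 to 3.7 and 0.0609 to 0.187 FPKM were apart. The log2 ratio of 1.85 for nasal over blood neutrophils did not pass 4-fold, although the FPKM ratio without a pseudocount was 27.7. For DP cells over blood neutrophils it was 0.93, -0.02 after centring on all genes and 2.55 with a pseudocount of 0.1, and the FPKM ratio was 10.3. For DP cells over nasal neutrophils it was -0.92, and the FPKM ratio was 0.371. The order of its levels was that of Klf4, with nasal neutrophils highest.

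The MYC partner Max and the antagonist Mxd1 were far more abundant than Myc itself. Mxd1, the antagonist that replaces MYC on MAX during terminal myeloid differentiation, had 125 FPKM in DP cells, 1128 FPKM in nasal neutrophils and 316 FPKM in blood neutrophils. It was 4-fold lower in DP cells than in nasal neutrophils (log2 ratio -3.17) and within 4-fold in the other comparisons (1.83 for nasal over blood neutrophils and -1.33 for DP cells over blood neutrophils). Within a library, the FPKM ratio of Mxd1 to Myc was 112 in DP cells, 375 in nasal neutrophils and 2910 in blood neutrophils. Max, the shared partner, had 109 FPKM in DP cells, 114 FPKM in nasal neutrophils and 180 FPKM in blood neutrophils. Mxi1 had 7.04, 2.27 and 11.2 FPKM and Mxd3 had 4.83, 6.55 and 8.01 FPKM, both within 4-fold. Of 9 tested genes of the network, 1 (Mxd1) was 4-fold lower in DP cells than in nasal neutrophils, beside 3.62% of all genes. In nasal over blood neutrophils 0 were past 4-fold, beside 13.1% higher and 3.23% lower. In DP cells over blood neutrophils 1 (Mxd4) was higher, beside 24.0%.

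Genes of ribosome production and growth that MYC is known to drive passed 4-fold in many cases in DP cells over blood neutrophils. Of 21 tested, 3 (Nme1, Nop58 and Wdr43) were 4-fold higher and 0 lower in DP cells than in nasal neutrophils, beside 8.42% and 3.62% of all genes. In nasal over blood neutrophils 3 (Cdk4, Fbl and Srm) were higher and 0 lower, beside 13.1% and 3.23%, so the count higher was near the share of all genes. In DP cells over blood neutrophils 14 were higher and 0 lower, beside 24.0% and 3.57%. The list medians were 1.01, 1.39 and 2.6, against 0.57, 0.41 and 0.95 for all genes. Nme1, a nucleoside diphosphate kinase, had 149 FPKM in DP cells, 18.5 FPKM in nasal neutrophils and 4.62 FPKM in blood neutrophils. Nop58, a core protein of small nucleolar ribonucleoproteins, had 27.8, 4.53 and 0.759 FPKM, and Wdr43, a ribosome assembly factor, had 15.8, 2.87 and 0.535 FPKM. These genes were highest in DP cells and lowest in blood. Cdk4, a cell cycle kinase, had 16.7, 14.2 and 0.686 FPKM in the same libraries.

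Among 26 tested transcription factors of other blood lineages and steps, 5 were 4-fold higher, among them Ets2, Id2, Id3 and Irf8, and 1 (Bcl6) lower in nasal than in blood neutrophils, with a median of 1.31. Compared with nasal neutrophils, 0 were higher in DP cells and 2 lower, with a median of -0.49, and in DP cells against blood neutrophils 5 (Ets2, Id2, Id3, Lmo2 and Lyl1) were higher and 2 (Bcl6 and Nfe2) lower, with a median of 0.51. In the order of these 3 comparisons, 13.1%, 8.42% and 24.0% of all genes were 4-fold higher and 3.23%, 3.62% and 3.57% lower. Ets2, a factor downstream of growth signalling, had 86.2 FPKM in DP cells, 268 FPKM in nasal neutrophils and 16.2 FPKM in blood neutrophils. Id2 and Id3, inhibitors of bHLH factors, had 228 and 13.6 FPKM in DP cells, 270 and 46.2 FPKM in nasal neutrophils and 32.2 and 2.16 FPKM in blood neutrophils. These 3 shared the low blood level of Cebpb and Klf2. Bcl6, a transcriptional repressor, stood the other way, with 1.41 FPKM in DP cells, 1.73 FPKM in nasal neutrophils and 31.8 FPKM in blood neutrophils. Nfe2, a bZIP factor, had 16, 65.4 and 184 FPKM. Rara, the retinoic acid receptor of granulocyte maturation, had 12.9, 52.6 and 44.6 FPKM, and Zeb2 had 3.48, 16.4 and 5.15 FPKM.

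Several marker groups moved with the differences between nose and blood. All 15 immediate early and heat shock genes, which respond rapidly to stimulation and stress, were 4-fold higher in nasal than in blood neutrophils, and 11 were in DP cells against blood neutrophils. The shares of all genes there were 13.1% and 24.0%. Their summed levels were 20100 FPKM in DP cells, 27810 FPKM in nasal neutrophils and 2284 FPKM in blood neutrophils, and Egr1 had 385, 1198 and 0.172 FPKM. Compared with nasal neutrophils, 5 of the 15 in DP cells were 4-fold lower and 0 higher, beside 3.62% and 8.42% of all genes. Transcripts of the nasal tissue were also present in both nasal libraries. Epithelial markers summed to 663 FPKM in DP cells, 283 FPKM in nasal neutrophils and 1.17 FPKM in blood neutrophils, olfactory neuron markers to 1728, 840 and 0.103 FPKM, and stromal and endothelial markers to 24.0, 13.9 and 0.0429 FPKM. Epcam, Krt5, Omp, Cnga2, Gng13, Gap43 and Cdh5 were listed at 0 in blood, so these tissue markers separated nose from blood. Macrophage markers summed to 416, 408 and 314 FPKM, with C1qa, C1qb, C1qc, Mrc1 and Mertk at 0 in blood, and 3 of the 5 tested were 4-fold higher in both nasal groups than in blood. Monocyte and dendritic cell markers summed to 252, 594 and 220.0 FPKM. The part of these cells and of the early-response genes in the values of the members, of Gfi1b and of the target genes was not tested. In such sorted bulk samples, fewer cells of a type and less RNA per cell cannot be told apart.

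The members also differed in how many genes shared their pattern. Likeness was the distance over the 3 libraries between log2(FPKM + 1) values centred on each gene's mean, among genes with a mean of 5 FPKM or more, and it describes 3 libraries only. Cebpb had 17 of 6251 genes within a distance of 0.5, with Gm5938 (0.16) and Ccl7 (0.21) nearest. Klf2 had 51, with Elavl3 (0.072) and Mgp (0.14) nearest, Klf4 had 128 of 6252, with Tbc1d20 (0.045) and Ptms (0.076), and Myc had 159, with Cflar (0.058) and S100a10 (0.062). Cebpb and Klf2 thus had the fewest genes near them. Cebpe had 376, with Alg1 (0.0035) and Dgcr6 (0.036), Cebpa had 407, with Nuak2 (0.014) and Arhgap27 (0.019), and Spi1 had 480, with Atg4d (0.005) and Pcid2 (0.0068). The nearly level members Klf6 and Cebpd had 561 and 663 such genes, with Atp6v1a (0.021) nearest to Klf6 and Rsph3a (0.024) nearest to Cebpd. Their next nearest were Tada3 (0.027) and Cited2 (0.029). Gfi1 is left out, because at 5 to 7 fragments the pseudocount alone makes it level, and the pseudocount also flattens Cebpa, Klf4 and Myc. Between members, Klf4 and Myc lay 0.22 apart, whereas Cebpb and Klf2 lay 2.08 apart and Cebpb and Klf6 4.51 apart.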

How the data were processed

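The submitters' processing notes name TopHat2 2.0.8, Bowtie2 2.1.0, Cufflinks 2.1.1 and the build mm9; the sources used here give no settings, annotation or strandedness. The authors deposited 1 FPKM value per gene and library. The 3 libraries were sorted cells processed with a low-input kit on total RNA, per the labels' protocols.

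FPKM values were used as deposited; values above 0 but under 1e-06 (32 in DP cells, 20 in nasal neutrophils, 43 in blood neutrophils) were set to 0. Log2 ratios used a pseudocount of 1 FPKM, genes with a mean of 1 FPKM or more over the 3 libraries were tested, and a 4-fold ratio was called. The pseudocount understates the change of low genes. The calling step was run on simulated data with large changes planted in well-expressed genes only. That checks the code and is no test of the calls for low genes such as Klf4 and Myc. Depth was estimated from the smallest steps of FPKM times length in genes with a single transcript above 1500 nt. Intervals are 95% exact Poisson intervals and cover counting error only.

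The members and the lists were chosen with earlier results of these data known. All 10 members are named; of each list, the 3 genes with the largest absolute log2 ratio in a comparison at a mean of 5 FPKM or more, all genes of lists of up to 5, and genes making up counts of 5 or fewer, except 2 genes that are not reported here. Gfi1 was left out of the likeness description. The platelet list, the set of 6 C/EBP genes in the family sum and the correction for transcript length were chosen after the data were seen. Promoters came from the RefSeq GRCm38.p6 table, a build other than that of the files, and no mm9 coordinates are given. Python 3.11.15, pandas 2.3.3, numpy 2.4.6, scipy 1.17.1 and matplotlib 3.10.9 were used.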

Additional observations from a re-analysis of the deposited data

How the results depend on the processing

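No paired analysis was possible because there was 1 library per group, and no library could be left out for the same reason. The counts of members 4-fold lower stayed at 0 in all 3 comparisons under every alternative run. The count 4-fold higher in DP cells over nasal neutrophils was 1 with a 2-fold threshold, and the median of -0.37 was -1.03 with upper-quartile scaling and -1.08 corrected for transcript length (98.7% of tested genes had a length). In nasal over blood neutrophils the count of 3 was 5 with a 2-fold threshold. It was 4 with a pseudocount of 0.1 or with values rescaled to a common sum. With a pseudocount of 5, a filter at a mean of 5 FPKM, centring on all genes or the length correction it was 2. Cebpb and Klf2 were the 2 that remained. The median of 1.44 was 2.34 with a pseudocount of 0.1, 0.69 with a pseudocount of 5 and 0.72 with a filter at a mean of 5 FPKM. In DP cells over blood neutrophils the count of 3 was 5 with a pseudocount of 0.1 and 1 with upper-quartile scaling, with centring on all genes or corrected for length, Cebpb being the 1 that remained. The median of 1.08 there was 2.64 with a pseudocount of 0.1, 0.39 with a pseudocount of 5, 0.13 centred on all genes and 0.14 corrected for length. A larger pseudocount shrinks the ratios of low genes by construction; the cause of the other changes was not tested. Of 258 single-member ratios under the alternatives, 30 had another sign than the reported one, 9 lost and 4 gained the 4-fold mark. The 9 were Klf4 in nasal over blood neutrophils (3 times) and Cebpe and Klf2 in DP cells over blood neutrophils (3 times each). The 4 gained were, with a pseudocount of 0.1, Myc in nasal over blood neutrophils (3.90) and in DP cells over blood neutrophils (2.55) and Klf4 in DP cells over blood neutrophils (2.82), and Myc in nasal over blood neutrophils with values rescaled to a common sum (2.33).

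Corrected for transcript length, all genes past 4-fold split into 271 higher and 737 lower in DP cells over nasal neutrophils and 1008 and 973 in DP cells over blood neutrophils; with upper-quartile scaling the splits were 347 and 728, and 1554 and 781. Depth limits Gfi1, Cebpa, Myc and Klf4 most, and the nasal neutrophil library, at about 13 fragments per FPKM and kilobase against 55 in DP cells and 54 in blood neutrophils, is the least precise.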
